A study of Homo sapiens with 56 samples.

Results

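LoVo is an established human colorectal adenocarcinoma line, described in the labels as wild-type epithelial cells of the colon. Its 8 RNA sequencing libraries, of 56 in the series, were 4 from cells treated with 10 mM 2-methylisocitrate (2-MiCit) and 4 from cells given the vehicle, water, here called control. They were chosen by cell line and treatment alone, and all 16485 genes of the table that holds them were considered. Cells of both groups were grown in complete medium in plates with 6 wells, and polyadenylated RNA was sequenced from total RNA with a strand-specific kit. The labels name no drug other than 2-MiCit and no time of treatment. The series holds 7 such lines. Of them 3 (HCT116, DLD1 and SW948, also with 4 libraries a group) stand in the same table and are used here only for comparison with LoVo. The libraries of a group are numbered 1 to 4 in the labels, which are silent on whether each had its own culture, so the spread behind every p-value could be technical. Coordinates below are those of GRCh38.

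2-MiCit is made by bacteria and some fungi when they oxidise propionate through the methylcitrate cycle, and it resembles isocitrate, a substrate of aconitase and isocitrate dehydrogenase. Colon epithelial cells live beside a microbiota that releases many small organic acids. Several gene programmes report on how such a cell senses nutrients: FOXO transcription factors act when insulin and growth factor signalling through AKT is low, and ATF4 is translated when amino acids are short or the endoplasmic reticulum is stressed. Chaperone, proteasome and ribosome assembly genes serve the folding, clearing and making of proteins.

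With 2-MiCit, 218 genes rose (1.59% of the 13677 tested) and 96 fell (0.702%) at an adjusted p below 0.05, together 2.3%, and 2808 genes had too few counts to be tested. The changes were small. The median called gene rose 1.33-fold or fell 1.22-fold, 8 genes rose over 2-fold, and 0 fell over 2-fold, while 1403 genes were higher and 1505 lower at an unadjusted p below 0.05. The 4 libraries of one group lay wholly above the 4 of the other for 313 of the 314 called genes, against 13.4% of all genes tested. Log2 fold changes were above 0 for 49.5% of all genes tested. Counts of called or same-signed list members below stand against these shares. Members of a list share the same libraries and are not independent. Levels are given as CPM, counts scaled to the size and composition of each library, and each fold change is 2-MiCit over control. The number of calls depended on single libraries and on the test. Higher and lower calls numbered 44 and 5 without 2-MiCit replicate 1, 35 and 4 without 2-MiCit replicate 2, 112 and 38 without 2-MiCit replicate 3, and 57 and 11 without 2-MiCit replicate 4. They numbered 528 and 540 without control replicate 1, 50 and 8 without control replicate 2, 32 and 4 without control replicate 3, and 291 and 200 without control replicate 4. DESeq2 called 458 higher and 477 lower, a more even split than 218 and 96. No called gene changed sign in any of these fits, and 34 of the 314 were called without each of the 8 libraries in turn.

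**Figure D1:**
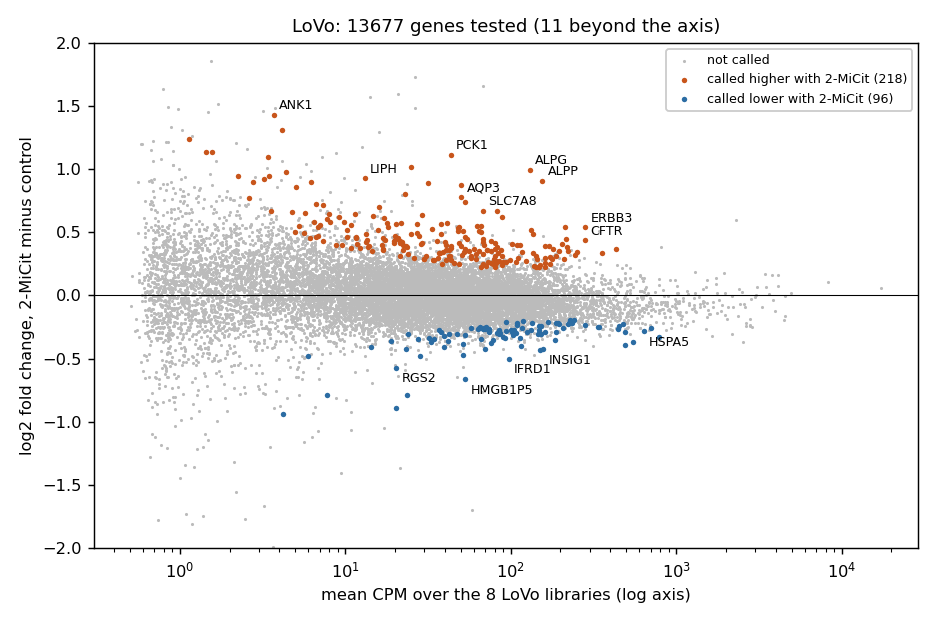
Mean CPM over the 8 LoVo libraries (x axis, log scale) against the log2 fold change of 2-MiCit minus control (y axis) for the 13677 genes tested. The 218 genes called higher reach further from 0 than the 96 called lower, and 11 genes, of which 0 were called, lie beyond the axis.

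Library totals ran from 13837856 to 16458714 counts. Control replicate 4 stood apart on the first principal component (29.9, against -18.0 to 15.2 for the other 7 libraries). Its counts also leaned away from long transcripts, with a slope of -0.148 log2 units per doubling of length against -0.042 to 0.063 in the others. Genes called higher had long transcripts (median 5786 bases for 212 genes with a length) and genes called lower short ones (median 2947 bases for 93 genes), against 3671.5 bases for all tested. With each library's trend on length removed, 348 genes were higher and 370 lower, and 279 of the 314 calls were kept. Epithelial markers were present in all 8 libraries. EPCAM, the epithelial adhesion molecule, stood at 536, 548, 621 and 607 CPM in the 2-MiCit libraries, against 592, 629.6, 698 and 770.1 CPM in the control libraries. CDX2, the intestinal transcription factor, stood at 131, 136, 143 and 143 CPM in the 2-MiCit libraries, against 124, 131, 139 and 147 CPM in the control libraries. Of the 16 colon epithelial markers 15 were tested and 0 were called by edgeR or DESeq2, with 2 higher and 3 lower at an unadjusted p below 0.05. By edgeR 1 was called lower without control replicate 1 and 1 higher without control replicate 4. They summed to 9441 to 10102 CPM with 2-MiCit and 9646 to 12304 CPM in control. Of fibroblast, leukocyte, endothelial and neural markers only 3 of 11, 2 of 12, 2 of 9 and 2 of 10 were tested, and 0 were called by edgeR or DESeq2, with 1 fibroblast marker higher and 1 lower at an unadjusted p below 0.05. The tested members of each of these 4 lists summed to at most 17.5 CPM in any library. The others were below the filter or are not analysed here.

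The most distinct changes relative to replicate spread were in the placental-type alkaline phosphatases, enzymes tethered to the cell surface that remove phosphate groups, usually made in placenta and germ cells and often by tumours. ALPG (ENSG00000163286, chromosome 2, 232406843 to 232410714, GRCh38) had 184, 177, 169 and 167 CPM in the 2-MiCit libraries, against 88.1, 90.6, 81.4 and 88.8 CPM in the control libraries. Its log2 fold change was 1.00 ± 0.05 (SE), a 1.99-fold rise (adjusted p = 9.92e-06). ALPP (ENSG00000163283, chromosome 2, 232378534 to 232382889), on the same strand nearby, had 205, 202, 204 and 197 CPM in the 2-MiCit libraries, against 101, 112, 99.6 and 118 CPM in the control libraries. Its log2 fold change was 0.91 ± 0.06, a 1.88-fold rise (adjusted p = 4.52e-05). Within each group the libraries differed little and the groups were far apart. Both calls held without any 1 library, the highest adjusted p being 2.22e-04 for ALPG and 7.39e-04 for ALPP. ALPI, the intestinal form made by mature enterocytes, had 46 counts over all 8 libraries and was not tested. The transcripts are near-identical copies, so that reads can be shared between ALPG and ALPP and their separate values are uncertain. Their promoters are shown because the pair moved together. The RefSeq windows on GRCh38.p14, both on the plus strand and spanning the transcription start, matched in 254 of 307 aligned positions (82.7%), and capitals mark their longest shared run, of 64 bases. The ALPG window is chr2:232406594-232406893 and the ALPP window is chr2:232378501-232378800.
ALPG: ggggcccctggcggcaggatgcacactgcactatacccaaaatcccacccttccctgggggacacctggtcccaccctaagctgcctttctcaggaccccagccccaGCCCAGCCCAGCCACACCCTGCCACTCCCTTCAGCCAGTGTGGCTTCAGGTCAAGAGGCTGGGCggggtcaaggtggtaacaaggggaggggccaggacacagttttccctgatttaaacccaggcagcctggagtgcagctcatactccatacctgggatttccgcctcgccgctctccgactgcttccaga
ALPP: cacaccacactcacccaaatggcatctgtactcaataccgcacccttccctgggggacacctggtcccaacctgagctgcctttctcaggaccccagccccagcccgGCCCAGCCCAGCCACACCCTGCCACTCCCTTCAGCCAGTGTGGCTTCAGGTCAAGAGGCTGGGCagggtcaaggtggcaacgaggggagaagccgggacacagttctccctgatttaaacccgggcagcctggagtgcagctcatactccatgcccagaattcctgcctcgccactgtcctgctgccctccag

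**Figure D2:**
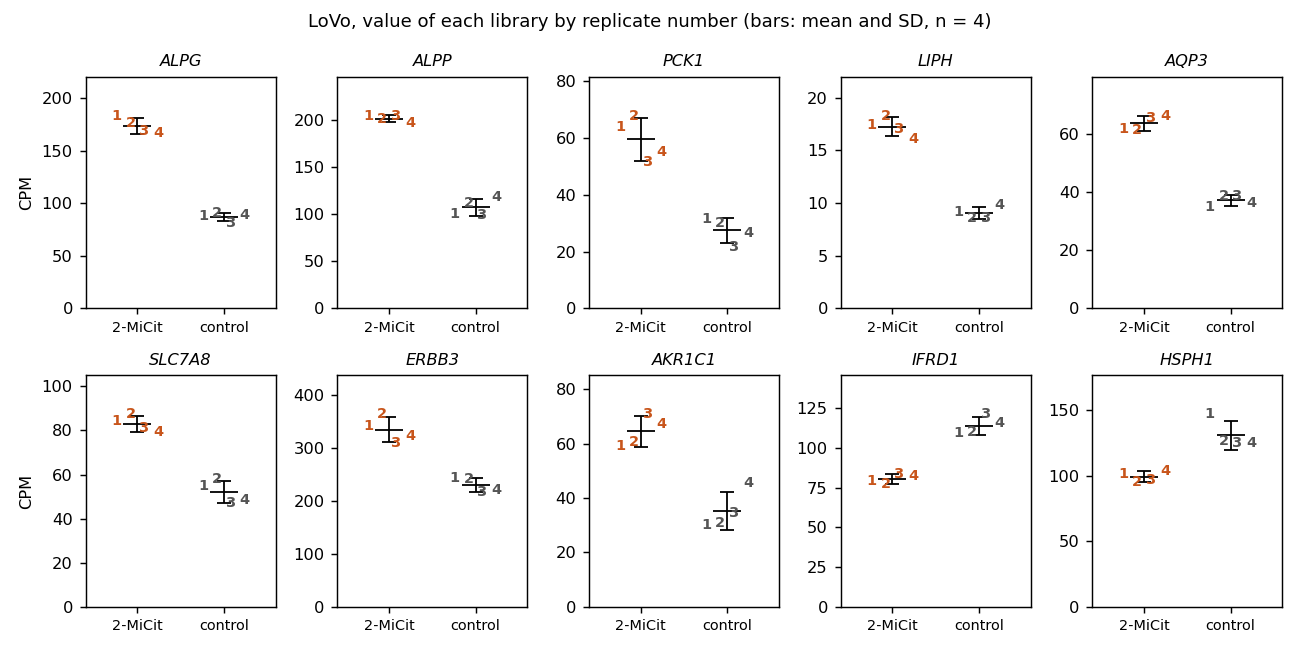
CPM of 10 genes in LoVo (y axis from 0), with each library drawn as its replicate number, 2-MiCit left and control right, and bars for the mean and SD of 4 libraries. In all 10 panels the 2-MiCit and control numbers do not overlap, with ALPG near 174 CPM with 2-MiCit and 87.2 CPM in control. The 10 were picked among called genes, of which 313 of 314 have no overlap, so this follows from the choice.

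Single genes of glucose and lipid metabolism and of transport also rose. PCK1, the cytosolic enzyme that commits oxaloacetate to glucose synthesis and a classic FOXO target in liver (ENSG00000124253, chromosome 20, 57561080 to 57568112), had 63.7, 67.7, 51.3 and 55.1 CPM in the 2-MiCit libraries, against 31.5, 29.9, 21.7 and 26.6 CPM in the control libraries. It rose 2.16-fold (log2 1.11 ± 0.12, adjusted p = 0.00259). Every 2-MiCit library had more than any control library, by a wide gap. PDK4, the kinase that blocks pyruvate entry into the TCA cycle, had 19.7, 20.3, 19.1 and 19.4 CPM in the 2-MiCit libraries, against 15.3, 14.5, 15.9 and 11.7 CPM in the control libraries, a rise of 0.45 on the log2 scale (adjusted p = 0.0392). They were the 2 of 14 tested genes of gluconeogenesis and glucose handling that were called, both higher (all genes: 1.59%). DESeq2 called 3 higher and 1 lower. The list's median log2 fold change was 0.15 against 0.00 for all genes tested. PDK4 lost its call without any 1 of 6 libraries, the exceptions being control replicates 1 and 4, with an adjusted p up to 0.149.

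LIPH, a secreted lipase that releases lysophosphatidic acid, had 17.4, 18.3, 17.1 and 16.1 CPM in the 2-MiCit libraries, against 9.14, 8.61, 8.61 and 9.86 CPM in the control libraries (log2 0.93 ± 0.08, adjusted p = 5.29e-04). AQP3, a membrane channel for water and glycerol of the colon surface, had 61.6, 61.2, 65.3 and 66.2 CPM in the 2-MiCit libraries, against 34.8, 38.8, 38.5 and 36.3 CPM in the control libraries (log2 0.78 ± 0.06, adjusted p = 1.70e-04). SLC7A8, an exchanger of neutral amino acids, had 84.2, 87.5, 81.02 and 79.4 CPM in the 2-MiCit libraries, against 54.98, 57.9, 47.2 and 48.6 CPM in the control libraries (log2 0.67 ± 0.07, adjusted p = 0.00188). In each of the 3 the lowest 2-MiCit library stood well above the highest control library. CFTR, the chloride channel of epithelia, rose 1.35-fold, with 323 ± 7.26 CPM with 2-MiCit and 239 ± 17.9 CPM in control (SD, n = 4). SERINC2, of a family of serine incorporators, rose 1.33-fold with 55.4 ± 2.84 CPM with 2-MiCit and 41.5 ± 1.09 CPM in control. ABCA3, a lipid transporter, rose 1.55-fold with 35.3 ± 3.25 CPM with 2-MiCit and 22.8 ± 1.33 CPM in control, and ABCC3, an efflux pump for organic anions, rose 1.42-fold with 56.8 ± 4.85 CPM with 2-MiCit and 39.9 ± 2.99 CPM in control. Those 2 were the called members of 14 tested ABC pumps (all genes: 1.59% higher), 13 of which had a log2 fold change above 0 (all genes: 49.5%). All 7 genes of this paragraph except ABCC3 kept their calls without any 1 library. ABCC3 lost its call without control replicate 3 (adjusted p = 0.0670) and without 2-MiCit replicate 2.

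Of 29 tested members of the FOXO and growth arrest list 13 rose and 0 fell by edgeR, against 14 and 0 by DESeq2. Among all genes tested 1.59% rose and 0.702% fell by edgeR. Of the 29 members 28 had a log2 fold change above 0, against 49.5% of all genes, and the median was 0.35. In 1 fit over the 32 libraries the list's median was 0.36 in LoVo, 0.52 in HCT116, 0.39 in DLD1 and 0.01 in SW948. Their summed level was 1269 to 1330 CPM in the 2-MiCit libraries and 1007 to 1083 CPM in the control libraries. The list was put together with earlier results of these data known. CCNG2, an unusual cyclin that restrains division, had 25.1, 25.9, 24.96 and 27.9 CPM in the 2-MiCit libraries, against 18.97, 15.6, 18.1 and 17.3 CPM in the control libraries (log2 0.57 ± 0.08, adjusted p = 0.00661). PNRC1, a nuclear receptor coactivator that curbs growth, had 21.3, 19.4, 22.7 and 22.5 CPM in the 2-MiCit libraries, against 14.7, 15.3, 13.7 and 15.4 CPM in the control libraries (log2 0.54 ± 0.08, adjusted p = 0.00880). MXD4, a MAX partner that opposes MYC, had 43.3, 50.4, 42.3 and 43.7 CPM in the 2-MiCit libraries, against 29.4, 29.2, 27.5 and 35.5 CPM in the control libraries (log2 0.57 ± 0.09, adjusted p = 0.0123). In all 3 the groups did not overlap, which held for 313 of the 314 called genes.

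PINK1, the kinase that marks damaged mitochondria, had 33.2, 32.7, 33.2 and 31.1 CPM in the 2-MiCit libraries, against 20.5, 19.2, 21.8 and 26.5 CPM in the control libraries (log2 0.57 ± 0.09, adjusted p = 0.0153). KLHL24, a ubiquitin ligase adaptor, had 14.8, 15.3, 16.3 and 15.9 CPM in the 2-MiCit libraries, against 11.1, 11.5, 11.6 and 10.2 CPM in the control libraries (log2 0.48 ± 0.08, adjusted p = 0.0154). SESN3, a sestrin that dampens mTORC1, rose most, with 29.6, 31.96, 27.6 and 27.96 CPM in the 2-MiCit libraries, against 20.9, 18.6, 16.3 and 11.2 CPM in the control libraries (log2 0.80 ± 0.16, adjusted p = 0.0370). Control replicate 4 was the lowest SESN3 library and control replicate 1 the highest control. FBXO32, the ubiquitin ligase atrogin-1, rose 1.58-fold (5.87 CPM with 2-MiCit and 3.69 CPM in control). YPEL3, an inducer of growth arrest, rose 1.52-fold (9.38 CPM with 2-MiCit and 6.17 CPM in control), and BTG1, an antiproliferative factor, rose 1.18-fold (41.8 CPM with 2-MiCit and 35.2 CPM in control). BCL6, a transcriptional repressor, and YPEL2 had log2 fold changes of 0.42 ± 0.11 and 0.68 ± 0.18 and did not pass (adjusted p = 0.0772 and 0.0752). The count of 13 was 6 without 2-MiCit replicate 1, 4 without 2-MiCit replicate 2, 8 without 2-MiCit replicate 3 and 6 without 2-MiCit replicate 4. It was 15, 4, 3 and 13 without control replicates 1, 2, 3 and 4, and 13 with the length trend removed. CCNG2, PNRC1 and ERBB3 kept their calls without any 1 library, and among the other 10 the highest adjusted p was 0.167. The forkhead motif GTAAACA, sought on both strands, was in the promoter windows of 2 of the 10 called members that had one (BTG1 and YPEL3), against 357 of 10039 tested genes (3.56%). Those 10 were picked by their LoVo values and the uncalled members were not searched, so enrichment was not tested.

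**Figure D3:**
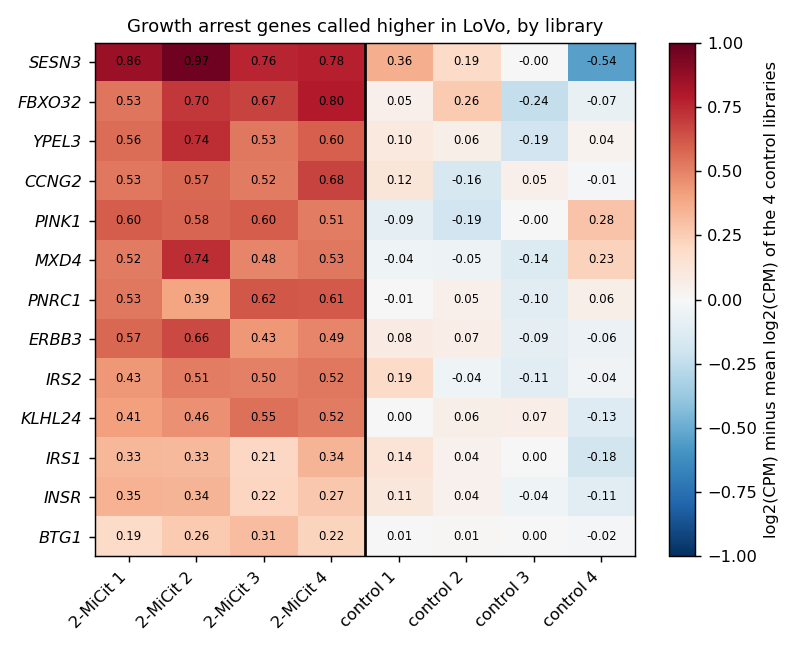
Heat map of the 13 called members of the FOXO and growth arrest list (rows) in the 8 LoVo libraries (columns, 2-MiCit left), as log2(CPM) minus the mean log2(CPM) of the 4 control libraries. All squares of 2-MiCit libraries are above 0, from 0.19 for BTG1 in replicate 1 to 0.97 for SESN3 in replicate 2, and SESN3 spans -0.54 to 0.36 among the controls. The rows were picked as called higher, so their direction follows from that choice.

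Of those 13, IRS1, IRS2, INSR and ERBB3 belong to the machinery that receives growth signals. ERBB3, a receptor that pairs with ERBB2 and feeds the PI3 kinase pathway (ENSG00000065361, chromosome 12, 56076799 to 56103505), had 341, 364, 309.9 and 322 CPM in the 2-MiCit libraries, against 243, 241, 216 and 221 CPM in the control libraries (log2 0.54 ± 0.06, adjusted p = 0.00318). IRS2, the adaptor that links insulin receptors to PI3 kinase, had 42.1, 44.7, 44.3 and 44.98 CPM in the 2-MiCit libraries, against 35.7, 30.3, 29.01 and 30.5 CPM in the control libraries (log2 0.49 ± 0.07, adjusted p = 0.00918). Both were higher in every 2-MiCit library, and 313 of the 314 called genes likewise had groups that did not overlap. A family of insulin and ErbB receptors and adaptors was therefore examined, chosen after values were seen. Of its 18 tested members 9 rose and 0 fell by edgeR (11 and 0 by DESeq2), against 1.59% and 0.702% of all genes tested. The 9 include IRS1, IRS2, INSR and ERBB3, already counted above, whose rise prompted the choice of the family. The median log2 fold change was 0.29. IGF1R, the receptor for insulin-like growth factors, had 131 ± 7.71 CPM with 2-MiCit and 103 ± 10.98 CPM in control. INSR, the insulin receptor, had 87.4 ± 3.70 CPM with 2-MiCit and 71.4 ± 4.78 CPM in control. IRS1 had 123 ± 5.31 CPM with 2-MiCit and 100.04 ± 9.01 CPM in control, and ERBB2 had 136 ± 7.28 CPM with 2-MiCit and 113 ± 4.86 CPM in control. The adaptor GAB2 rose 1.34-fold, PIK3CD, a PI3 kinase catalytic subunit, 1.57-fold, and PHLPP1, a phosphatase that removes an activating phosphate from AKT, 1.27-fold. The count of 9 was 2 without 2-MiCit replicate 1, 2 or 4, 5 without 2-MiCit replicate 3, and 11, 2, 1 and 9 without control replicates 1, 2, 3 and 4. ERBB3 alone kept its call each time, with an adjusted p up to 0.0261.

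Aldo-keto reductases of the 1C family, which reduce steroids, prostaglandins and reactive carbonyls and are targets of NRF2, rose together. AKR1C1 (ENSG00000187134, chromosome 10, 4963253 to 4983283) had 58.99, 60.7, 70.8 and 67.2 CPM in the 2-MiCit libraries, against 30.2, 30.6, 34.5 and 45.5 CPM in the control libraries (log2 0.88 ± 0.12, adjusted p = 0.00978). AKR1C2 had 37.3, 36.6, 46.4 and 43.6 CPM in the 2-MiCit libraries, against 16.98, 19.04, 24.2 and 28.5 CPM in the control libraries (log2 0.89 ± 0.15, adjusted p = 0.0259). AKR1C3 had 91.5, 99.02, 110.4 and 104 CPM in the 2-MiCit libraries, against 52.8, 62.3, 61.2 and 78.1 CPM in the control libraries (log2 0.67 ± 0.11, adjusted p = 0.0153). Control replicate 4 was the highest control library for all 3. These genes have near-identical copies, so their separate values are uncertain. AKR1B10, a related reductase, was at 0.13 ± 0.08 on the log2 scale and did not pass (adjusted p = 0.395). Of 27 tested NRF2 targets 5 rose (all genes: 1.59%), the others being ABCC3 and GPX2. GPX2, a gut glutathione peroxidase, had 158 ± 12.1 CPM with 2-MiCit and 129.5 ± 7.41 CPM in control. The NRF2 list's median was 0.03, and NQO1, the quinone reductase often used as its readout, was at 0.21 ± 0.07 on the log2 scale (adjusted p = 0.124). Without control replicate 3, 0 of the 5 were called. Without 2-MiCit replicates 1 to 4, 3, 1, 3 and 3 were called, and 5, 2 and 6 without control replicates 1, 2 and 4. The starts of AKR1C1 and AKR1C2 are printed because of the shared sequence: their windows (chr10:4963165-4963464, plus strand, and chr10:5003808-5004107, minus strand) matched in 288 of 308 aligned positions (93.5%), and capitals mark the longest shared run, of 245 bases.
AKR1C1: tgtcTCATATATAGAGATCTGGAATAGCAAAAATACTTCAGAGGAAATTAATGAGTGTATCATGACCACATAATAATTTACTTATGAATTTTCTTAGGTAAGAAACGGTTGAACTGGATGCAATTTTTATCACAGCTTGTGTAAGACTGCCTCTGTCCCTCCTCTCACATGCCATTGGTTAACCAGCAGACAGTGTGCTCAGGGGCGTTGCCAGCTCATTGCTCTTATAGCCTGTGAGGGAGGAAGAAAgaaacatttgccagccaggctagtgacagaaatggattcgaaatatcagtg
AKR1C2: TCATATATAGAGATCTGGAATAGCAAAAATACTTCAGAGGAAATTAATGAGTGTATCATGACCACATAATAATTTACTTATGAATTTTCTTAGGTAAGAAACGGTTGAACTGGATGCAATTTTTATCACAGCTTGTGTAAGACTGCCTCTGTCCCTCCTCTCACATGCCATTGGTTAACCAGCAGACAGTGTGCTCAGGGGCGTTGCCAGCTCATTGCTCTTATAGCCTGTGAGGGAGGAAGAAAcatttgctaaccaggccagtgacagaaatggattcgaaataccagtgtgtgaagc

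In the interferon, NF-kappaB and p53 lists 3, 1 and 3 members were called higher by edgeR, against 1.59% of all genes tested. Of 16 tested NF-kappaB and chemokine genes the 1 called was BDKRB2 (below), which kept its call without any 1 library. DESeq2 called 2 of the 16 higher. MX1, an antiviral GTPase induced by interferon, had 96.1, 94.1, 90.1 and 86.8 CPM in the 2-MiCit libraries, against 72.6, 67.2, 69.7 and 65.8 CPM in the control libraries (log2 0.42 ± 0.06, adjusted p = 0.00661). GBP2, an interferon-induced GTPase, rose 2.13-fold with 4.68 ± 0.816 CPM with 2-MiCit and 2.19 ± 0.161 CPM in control, and SAMD9, an antiviral factor, rose 1.41-fold. They were 3 of 35 tested interferon genes, with 0 lower and a list median of 0.11, while DESeq2 called 5 higher and 0 lower. Of these 3 interferon genes MX1 alone kept its call without any 1 library. The interferon count was 6 without control replicate 1, 1 without control replicate 3 and 2 without any other. Of 28 tested p53 targets, TP53INP1, a regulator of autophagy (1.86-fold), TP53I3, a quinone oxidoreductase (1.35-fold), and SPATA18, a mitochondrial quality factor (1.33-fold), rose and 0 fell. CDKN1A, the cell cycle inhibitor p21, had 74.6, 72.9, 62.3 and 63.5 CPM in the 2-MiCit libraries, against 67.6, 69.3, 64.8 and 66.5 CPM in the control libraries. MDM2, the ubiquitin ligase of p53, had 295, 303, 324 and 357 CPM in the 2-MiCit libraries, against 317, 327, 325 and 282 CPM in the control libraries. The groups overlapped for both, with log2 fold changes of 0.03 ± 0.07 and 0.03 ± 0.07 (adjusted p = 0.869 and 0.851). The p53 count was 4 without control replicate 4, 3 without control replicate 1, 1 without 2-MiCit replicate 3 and 0 without any other.

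Cytoskeletal and signalling genes were among the other large rises. ANK1, an ankyrin that anchors membrane proteins to the cytoskeleton, had 5.50, 6.67, 5.46 and 3.95 CPM in the 2-MiCit libraries, against 2.61, 1.83, 1.72 and 1.81 CPM in the control libraries (log2 1.43 ± 0.20, adjusted p = 0.00661). BDKRB2, a bradykinin receptor, had 5.84, 6.03, 5.59 and 6.00 CPM in the 2-MiCit libraries, against 2.86, 3.23, 3.24 and 2.54 CPM in the control libraries (log2 0.98 ± 0.13, adjusted p = 0.00504). AHNAK2, a giant scaffold protein, had 69.9, 72.1, 59.04 and 62.8 CPM in the 2-MiCit libraries, against 44.2, 38.1, 37.6 and 38.5 CPM in the control libraries (log2 0.74 ± 0.08, adjusted p = 0.00188). NEURL1 rose 1.65-fold, EBF4 1.81-fold and CCDC92 2.47-fold. EBF4 and CCDC92 lost their calls without control replicate 2, control replicate 3 or 2-MiCit replicate 2, with adjusted p up to 0.0786. Among called genes with many counts, the aldehyde dehydrogenase ALDH1A3 rose 1.26-fold, the scaffold AHNAK 1.29-fold and the apical actin regulator SHROOM3 1.30-fold. The glycosyltransferase MGAT5 rose 1.27-fold and TNRC18 1.25-fold. TNRC18 was not called with the length trend removed (adjusted p = 0.119). These 5 lost their calls without control replicate 3 and 2-MiCit replicate 2, with adjusted p up to 0.158. A single member was called higher in each of the immediate early (23 tested), enterocyte (22), mesenchymal (21), propionate (13) and Wnt (22) lists (all genes: 1.59%). DESeq2 called 1, 1, 2, 1 and 5 higher, and without control replicate 1 edgeR called 6 Wnt genes higher. Without control replicate 4 it called 2 immediate early and 2 mesenchymal genes higher. JUN, an AP-1 subunit, rose 1.45-fold, MYO1A, a brush border myosin, 1.22-fold and LAMB3, a laminin-332 chain, 1.19-fold. ACSS1, which activates acetate in mitochondria, rose 1.18-fold and EPHB2, a Wnt target and crypt receptor, 1.17-fold. EPHB2 was not called with the length trend removed (adjusted p = 0.338), and these 5 lost their calls without 2-MiCit replicate 1, 2 or 4 or control replicate 2 or 3, with adjusted p up to 0.167.

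**Figure D4:**
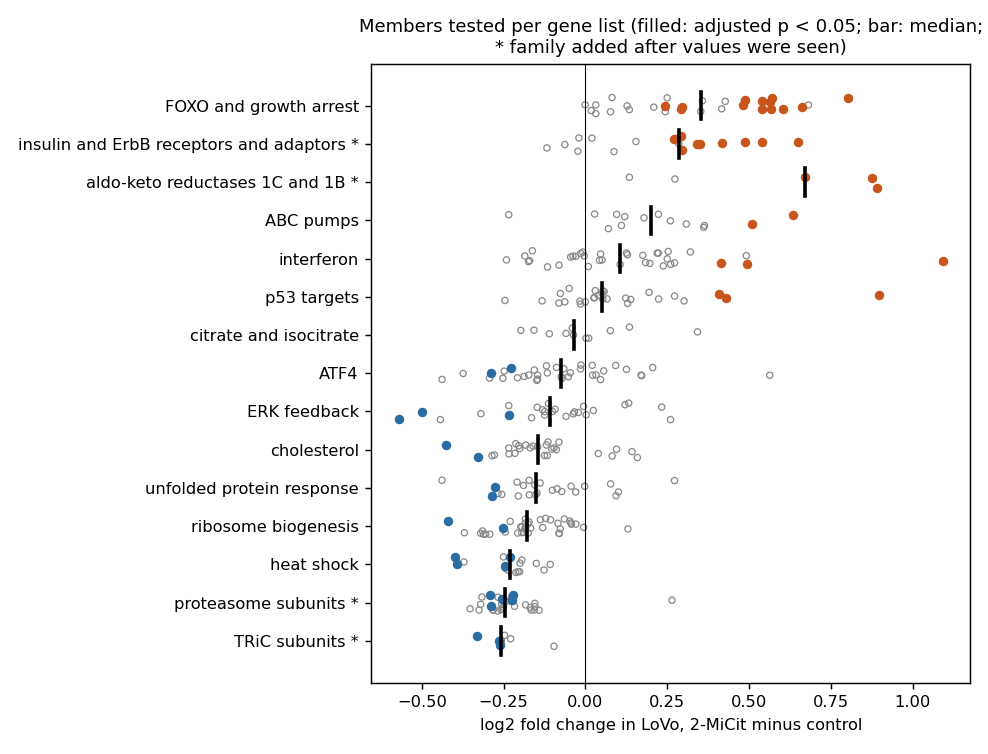
Log2 fold change in LoVo, 2-MiCit minus control (x axis), of each tested member of 15 gene lists (rows), filled where the adjusted p is below 0.05, with a bar at the list's median. The FOXO and growth arrest list lies to the right, with a median of 0.35, and heat shock, proteasome and TRiC members lie to the left, with medians of -0.23, -0.24 and -0.26.

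Among genes that fell, IFRD1 and RGS2 were among the clearest. IFRD1, a stress-responsive coregulator of transcription (ENSG00000006652, chromosome 7, 112422968 to 112481017), had 78.99, 77.1, 83.8 and 82.1 CPM in the 2-MiCit libraries, against 109, 109.9, 121 and 115 CPM in the control libraries (log2 -0.50 ± 0.06, adjusted p = 0.00188). RGS2, which shortens signalling through G protein-coupled receptors, had 15.8, 16.3, 16.4 and 16.7 CPM in the 2-MiCit libraries, against 21.5, 23.5, 26.3 and 25.7 CPM in the control libraries (log2 -0.57 ± 0.08, adjusted p = 0.00685). Both kept their calls without any 1 library. With PHLDA1, a growth factor-induced gene, they were the 3 of 26 tested ERK feedback genes that fell, and 0 rose by edgeR, against 4 lower and 1 higher by DESeq2. PHLDA1 had 244, 254, 262 and 269 CPM in the 2-MiCit libraries, against 296, 309, 306 and 299 CPM in the control libraries (log2 -0.23 ± 0.05, adjusted p = 0.0370). The count was 5 without control replicate 4, 3 without control replicate 1 and 2 without any other. Of 8 tested goblet and enteroendocrine genes 2 fell and 0 rose by edgeR (all genes: 0.702% and 1.59%). In log2 fold change 4 were above 0 and 4 below, with a median of 0.04. DESeq2 called 2 lower and 1 higher. NTS, the precursor of neurotensin, was at 4.43, 4.24, 7.08 and 7.13 CPM with 2-MiCit and 8.89, 10.1, 9.72 and 10.9 CPM in control, and AGR2, a disulfide isomerase of mucous cells, fell 1.26-fold. NTS and AGR2 lost their calls without any 1 of 6 libraries, with adjusted p up to 0.149.

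Most genes that fold, clear and build proteins had small negative log2 fold changes, and how many passed depended on the test. Other lists leaned the same way, so the lean was not particular to these genes. Below 0 were 32 of 34 tested nucleotide synthesis genes, 26 of 28 splicing regulators and 35 of 40 DNA replication genes. So were 34 of 40 mitosis genes and 25 of 29 ribosomal protein genes. All 17 tested heat shock genes had a log2 fold change below 0, while 49.5% of all genes tested were above 0. By edgeR 4 fell (all genes: 0.702%), against 12 by DESeq2, and the median was -0.23 against 0.00 for all genes. In 1 fit over the 32 libraries the list's median was -0.22 in LoVo, -0.49 in HCT116, -0.21 in DLD1 and 0.01 in SW948. HSPH1, which recharges HSP70, had 102, 94.9, 96.6 and 104 CPM in the 2-MiCit libraries, against 147, 126, 125 and 125 CPM in the control libraries (log2 -0.40 ± 0.06, adjusted p = 0.0144). HSPE1, the mitochondrial HSP10, had 399.8, 400.4, 478 and 409 CPM in the 2-MiCit libraries, against 487, 519, 581 and 629 CPM in the control libraries (log2 -0.39 ± 0.09, adjusted p = 0.0447). STIP1, the bridge between HSP70 and HSP90, fell 1.19-fold with 315 ± 18.9 CPM with 2-MiCit and 373 ± 10.3 CPM in control, and FKBP4, a partner of HSP90, fell 1.17-fold with 441 ± 12.7 CPM with 2-MiCit and 518 ± 19.5 CPM in control. HSP90AA1 itself was at -0.37 ± 0.09 and just missed the threshold (adjusted p = 0.0502). The heat shock count was 0 without 2-MiCit replicate 1 or 2 or control replicate 3, and 1 without 2-MiCit replicate 4 or control replicate 2. It was 2 without 2-MiCit replicate 3, 7 without control replicate 4, 10 without control replicate 1 and 11 with the length trend removed.

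The cytosolic chaperonin TRiC, which folds actin and tubulin, and the proteasome were added after values were seen. All 8 TRiC subunits had a log2 fold change below 0, and TCP1 (log2 -0.33 ± 0.07), CCT6A (-0.26 ± 0.06) and CCT7 (-0.26 ± 0.06) fell. Of all genes tested 49.5% were above 0, and 0.702% were called lower. TCP1 had 671, 674, 723 and 719.8 CPM in the 2-MiCit libraries, against 800.5, 849, 890.0 and 971 CPM in the control libraries. Of 31 tested proteasome subunits 30 were below 0 and 5 fell: PSMB2 (log2 -0.22 ± 0.04), PSMC2 (-0.29 ± 0.06), PSMD6 (-0.29 ± 0.06), PSMD14 (-0.26 ± 0.06) and PSMD1 (-0.22 ± 0.05). PSMC2, an ATPase of the regulatory particle, had 109, 111, 119.7 and 112 CPM in the 2-MiCit libraries, against 126, 138, 139.6 and 149.6 CPM in the control libraries. DESeq2 called 7 TRiC and 19 proteasome subunits lower. In 1 fit over the 32 libraries the TRiC median was -0.24 in LoVo, -0.43 in HCT116, -0.22 in DLD1 and 0.09 in SW948. The proteasome median was -0.23, -0.47, -0.26 and 0.11 in these lines. The TRiC count by edgeR was 7 and 6 without control replicates 1 and 4 and 0 without any other library. The proteasome count was 22 and 5 without control replicates 1 and 4 and 0 without any other. In ribosome biogenesis 37 of 38 tested genes were below 0, with a median of -0.18. RRP9, a component of the U3 particle, fell 1.34-fold with 59.5 ± 1.72 CPM with 2-MiCit and 79.7 ± 9.33 CPM in control, and NOP56, a box C/D core protein, fell 1.19-fold with 306 ± 8.39 CPM with 2-MiCit and 364 ± 19.8 CPM in control. The count of 2 was 11 and 7 without control replicates 1 and 4 and 0 without any other, 11 with the length trend removed and 12 by DESeq2. EBNA1BP2, another ribosome assembly factor, fell 1.35-fold, and POLR3G, a subunit of RNA polymerase III, fell 1.38-fold, with adjusted p up to 0.123 when 1 library was left out.

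HSPA5, the master chaperone of the endoplasmic reticulum and a standard readout of its stress (ENSG00000044574, chromosome 9, 125234853 to 125241330), fell as well. It had 574, 549, 599 and 571 CPM in the 2-MiCit libraries, against 681, 673, 700.2 and 738 CPM in the control libraries (log2 -0.28 ± 0.06, adjusted p = 0.0334). Each 2-MiCit library was below each control, and 313 of the 314 called genes likewise had groups that did not overlap. DNAJB11, its cofactor, had 75.2, 74.2, 78.7 and 78.4 CPM in the 2-MiCit libraries, against 92.1, 86.2, 98.5 and 94.8 CPM in the control libraries (log2 -0.28 ± 0.06, adjusted p = 0.0370). These were 2 of 24 tested genes of the unfolded protein response (all genes: 0.702% lower), with 0 higher and a median of -0.15. DESeq2 called 7 lower and 0 higher. HSP90B1 was at -0.27 ± 0.07 (adjusted p = 0.0690). The count was 6 without control replicate 1, 2 without control replicate 4 and 0 without any other. The start of HSPA5 is shown because it holds a match to the endoplasmic reticulum stress element. That motif, CCAAT followed after any 9 bases by CCACG and sought on both strands, was in the windows of 7 of 22 tested genes of the list that had one, and in 16 of 10039 tested genes (0.159%). The RefSeq window chr9:125241294-125241593 (GRCh38.p14, minus strand) has the match in capitals.
HSPA5: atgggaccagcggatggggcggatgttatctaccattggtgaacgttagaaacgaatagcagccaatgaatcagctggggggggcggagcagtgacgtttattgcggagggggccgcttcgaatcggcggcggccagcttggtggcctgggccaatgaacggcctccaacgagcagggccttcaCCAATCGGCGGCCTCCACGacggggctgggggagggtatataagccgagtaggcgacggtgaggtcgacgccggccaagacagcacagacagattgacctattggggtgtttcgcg

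Single genes of sterol, iron, polyamine and cell cycle lists also fell, and most of these lists had more calls without control replicate 1 or by DESeq2. INSIG1, the sterol sensor that holds SREBP in the endoplasmic reticulum, had 146, 121, 134 and 136 CPM in the 2-MiCit libraries, against 187, 166, 166 and 204 CPM in the control libraries (log2 -0.43 ± 0.08, adjusted p = 0.0235). IDI1, an isomerase of the mevalonate pathway, had 76.4, 73.2, 84.6 and 83.5 CPM in the 2-MiCit libraries, against 97.96, 96.5, 101 and 103 CPM in the control libraries (log2 -0.33 ± 0.06, adjusted p = 0.0236). They were the 2 of 27 tested cholesterol genes that fell by edgeR (all genes: 0.702%), against 7 by DESeq2. MSMO1, a sterol oxidase, was at -0.28 ± 0.07 on the log2 scale and did not pass (adjusted p = 0.0514). TFRC, the transferrin receptor, had 470.3, 472, 474 and 511 CPM in the 2-MiCit libraries, against 657, 645, 653 and 535 CPM in the control libraries (log2 -0.37 ± 0.07, adjusted p = 0.0321). Library 4 was the odd one in both groups, highest with 2-MiCit and lowest in control. ODC1, the first enzyme of polyamine synthesis, fell 1.22-fold with 441 ± 18.7 CPM with 2-MiCit and 538 ± 43.3 CPM in control. CDC20, an activator of the anaphase-promoting complex, fell 1.22-fold, the replication factors TIPIN 1.28-fold and DBF4 1.21-fold. PRPS1, which makes phosphoribosyl pyrophosphate, fell 1.19-fold and TRA2B, a splicing regulator, 1.15-fold. TPM3, a tropomyosin, fell 1.18-fold and MTHFD2L, a mitochondrial folate enzyme, 1.33-fold. PRPS1 was not called with the length trend removed (adjusted p = 0.101). All 11 genes called in this paragraph lost their calls without 2-MiCit replicate 1, 2-MiCit replicate 2 or control replicate 3, with adjusted p up to 0.182. By edgeR 1 of 40 mitosis genes, 2 of 40 DNA replication genes and 2 of 34 nucleotide synthesis genes fell. So did 1 of 28 splicing regulators, 1 of 13 polyamine genes and 1 of 13 iron genes, against 0.702% of all genes tested. Calls of 1 or 2 genes say little about a list. DESeq2 called 8, 7, 8, 9, 1 and 1 members of these lists lower, in that order. Without control replicate 1 the edgeR counts were 7, 5, 6, 5, 3 and 1, and without control replicate 4 they were 3, 2, 5, 1, 1 and 1. Without any other library they were 0, except for 1 DNA replication gene without 2-MiCit replicate 4. Without control replicates 1 and 4, 3 and 5 cholesterol genes were called, 1 without control replicate 2 or 2-MiCit replicate 3, and 0 without any other.

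Among the largest falls were gene models that share sequence with others, whose values are uncertain. The processed pseudogene HMGB1P5 fell 1.59-fold, NOTCH2NLC, which shares sequence with part of NOTCH2, 1.91-fold and the readthrough gene ISY1-RAB43 1.85-fold. Of the other large falls, C5orf63 fell 1.73-fold, AMN1 1.39-fold, AARSD1 1.39-fold and ZBTB8OS 1.35-fold. HMGB1P5 kept its call without any 1 library. The other 6 lost theirs without 2-MiCit replicate 2 or control replicate 3, with adjusted p up to 0.156. C5orf63 was not called with the length trend removed (adjusted p = 0.0548).

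The effect on targets of ATF4, the transcription factor of the amino acid response, differed in LoVo from that in HCT116 and DLD1. Against SW948 0 of the 35 tested were called by edgeR, but that contrast called few genes of any kind. Of 15800 genes 0 were lower in LoVo and 6 (0.038%) higher, so the 0 of 35 does not show that the effects were alike. In LoVo 0 of the 35 rose and 2 fell by edgeR, against 1.59% and 0.702% of all genes tested. DESeq2 called 1 higher and 7 lower, and at an unadjusted p below 0.05 there were 2 and 12. ASNS, asparagine synthetase (ENSG00000070669, chromosome 7, 97852118 to 97872542), had 140.0, 149.5, 155 and 141 CPM in the 2-MiCit libraries, against 178, 185, 171 and 179.8 CPM in the control libraries (log2 -0.29 ± 0.05, adjusted p = 0.0216). PSAT1, an enzyme of serine synthesis, had 205, 211, 202 and 203 CPM in the 2-MiCit libraries, against 238, 253, 244 and 227 CPM in the control libraries (log2 -0.23 ± 0.05, adjusted p = 0.0393). Neither pair of groups overlapped, but both calls were lost without 2-MiCit replicate 1, 2 or 4 or control replicate 2 or 3 (adjusted p up to 0.152), and PSAT1 with the length trend removed (adjusted p = 0.0967). The count of 2 was 3 and 4 without control replicates 1 and 4, 1 without 2-MiCit replicate 3 and 0 without any other, and 1 gene was called higher without control replicate 1 or 4. The median log2 effect of the list was -0.06 in LoVo, 0.42 in HCT116, 0.26 in DLD1 and 0.04 in SW948 in 1 fit over the 32 libraries. In that fit the LoVo effect was set against the mean effect of the other lines. It was lower for 46 of 15800 genes (0.291%) and higher for 9 (0.057%), and 11 of the 35 ATF4 genes were among the 46. The ASNS difference was -0.99 ± 0.08 on the log2 scale (adjusted p = 3.07e-09), from effects of -0.27 ± 0.06 in LoVo, 1.59 ± 0.07 in HCT116, 0.41 ± 0.06 in DLD1 and 0.15 ± 0.07 in SW948. The PSAT1 difference was -0.64 ± 0.07 (adjusted p = 2.97e-06), from -0.21 ± 0.06 in LoVo, 1.11 ± 0.06 in HCT116, 0.20 ± 0.06 in DLD1 and -0.02 ± 0.06 in SW948. In both genes HCT116 had by far the highest effect.

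CHAC1, which breaks down glutathione, differed by -1.53 ± 0.22 (adjusted p = 8.11e-04), from -0.42 ± 0.18 in LoVo, 1.80 ± 0.19 in HCT116, 1.18 ± 0.18 in DLD1 and 0.32 ± 0.25 in SW948. DDIT4, an inhibitor of mTORC1, differed by -1.23 ± 0.20 (adjusted p = 0.00221), from -0.19 ± 0.17 in LoVo, 1.12 ± 0.17 in HCT116, 1.71 ± 0.17 in DLD1 and 0.27 ± 0.19 in SW948. TRIB3, a pseudokinase that restrains ATF4 and AKT, differed by -0.69 ± 0.11, the ATF4 partner CEBPG by -0.39 ± 0.06 and the seryl-tRNA synthetase SARS1 by -0.41 ± 0.07. In LoVo alone none of these 5 passed the test (adjusted p from 0.0501 to 0.397). Among the 23 cytosolic aminoacyl-tRNA synthetases and partners, a family added after values were seen, RARS1 (log2 -0.28 ± 0.06), YARS1 (-0.20 ± 0.05) and AIMP1 (-0.21 ± 0.05) fell in LoVo. Those 3 calls, against 0.702% of all genes tested, became 12 by DESeq2, 8 and 7 without control replicates 1 and 4 and 0 without any other. Of the 23, 6 were lower in LoVo than in the mean of the other lines. Against single lines, 21 ATF4 genes were lower in LoVo than in HCT116 (all genes: 599, 3.79%), 13 lower than in DLD1 (all genes: 59, 0.373%) and 0 lower than in SW948 (all genes: 0, 0%, with edgeR, against 96 by DESeq2 and 1440 at an unadjusted p below 0.05). The start of ASNS is shown because it holds a match to the motif of the amino acid response. That motif, TGATGNAA sought on both strands, was in the windows of 9 of the 28 tested ATF4 list genes that had one and of 278 of 10039 tested genes (2.77%). The RefSeq window chr7:97872359-97872658 (GRCh38.p14, minus strand) has the match in capitals.
ASNS: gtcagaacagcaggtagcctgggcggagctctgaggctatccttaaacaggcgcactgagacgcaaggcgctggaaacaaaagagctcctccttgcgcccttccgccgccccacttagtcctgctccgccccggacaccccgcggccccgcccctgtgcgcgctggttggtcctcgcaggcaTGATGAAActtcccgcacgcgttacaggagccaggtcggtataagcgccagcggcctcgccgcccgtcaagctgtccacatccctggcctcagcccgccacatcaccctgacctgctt

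**Figure D5:**
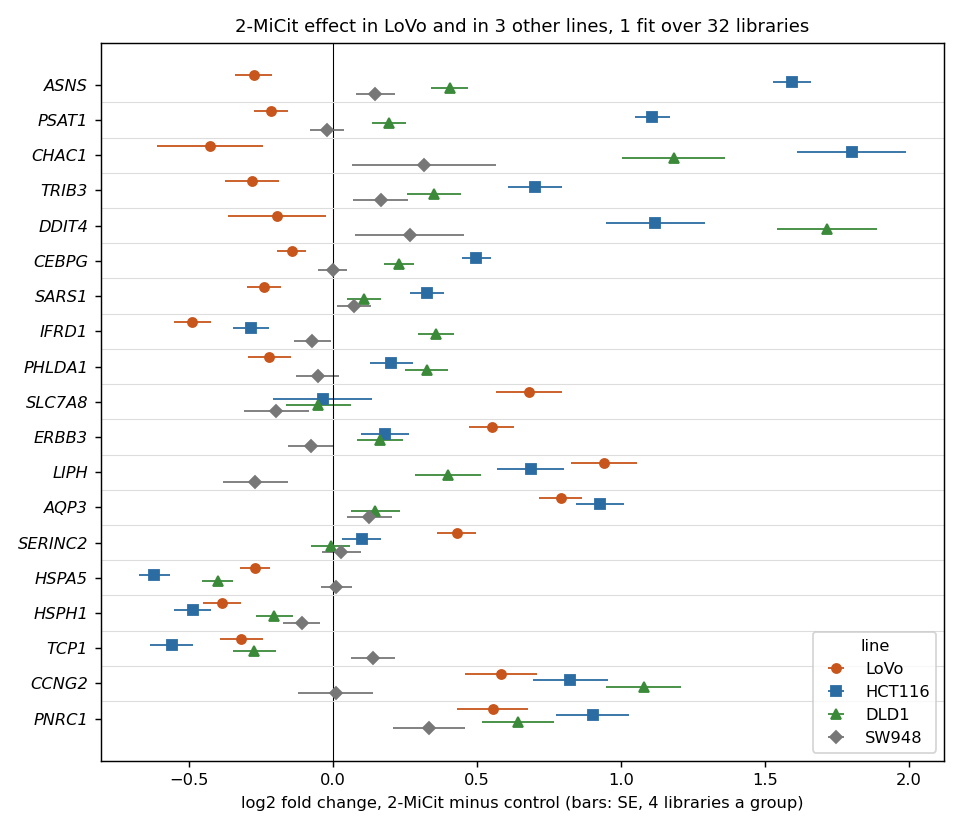
Log2 effect of 2-MiCit (x axis, bars SE) for 19 genes (rows) in LoVo, HCT116, DLD1 and SW948, from 1 fit over 32 libraries. For ASNS the LoVo effect is -0.27 and the HCT116 effect 1.59, while SLC7A8 is at 0.68 in LoVo and between -0.20 and -0.04 in the other lines.

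Other differences between lines ran in both directions. Of the 9 genes higher in LoVo, SLC7A8 had the lowest adjusted p, with a difference of 0.78 ± 0.14 (adjusted p = 0.00505) from effects of 0.68 ± 0.11 in LoVo, -0.04 ± 0.17 in HCT116, -0.05 ± 0.11 in DLD1 and -0.20 ± 0.11 in SW948. ERBB3 differed by 0.46 ± 0.09 (adjusted p = 0.0123), LIPH by 0.67 ± 0.13 (adjusted p = 0.0130), SERINC2 by 0.39 ± 0.08 (adjusted p = 0.0180) and AQP3 by 0.39 ± 0.09 (adjusted p = 0.0462). AQP3 was at 0.79 ± 0.07 in LoVo and 0.93 ± 0.08 in HCT116. GDF11, a secreted growth factor of the TGF-beta family, differed by 0.47 ± 0.10 and C2orf88, a binder of protein kinase A, by 0.39 ± 0.09. Lower in LoVo were IFRD1 (-0.49 ± 0.07), the ERK phosphatase DUSP4 (-0.44 ± 0.07), the translation inhibitor PDCD4 (-0.47 ± 0.08) and PHLDA1 (-0.38 ± 0.09). IFRD1 was at -0.49 ± 0.06 in LoVo and 0.36 ± 0.06 in DLD1. Without 1 LoVo library the differences of SLC7A8, IFRD1, DUSP4, PDCD4 and the 7 ATF4 genes above kept their calls. AQP3, C2orf88 and PHLDA1 lost theirs without any 1 of the 8 libraries (adjusted p up to 0.146). LIPH lost its call without 2-MiCit replicate 2 or control replicate 2 or 3 (adjusted p up to 0.0594), and SERINC2 without 2-MiCit replicate 1 or 2 or control replicate 1 (up to 0.0867). ERBB3 lost its call without 2-MiCit replicate 2 or control replicate 3 or 4 (up to 0.0709), and GDF11 without 2-MiCit replicate 1 or 3 or control replicate 1 or 4 (up to 0.0832).

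Against HCT116 the LoVo effect was higher for 355 genes (2.25%), against DLD1 for 21 (0.133%) and against SW948 for 6 (0.038%). The 6 against SW948, named after their values were seen, were LIPH, AQP3, ERBB3, PCK1, SLC7A8 and OPTN. PCK1 differed there by 1.11 ± 0.17 (adjusted p = 0.0255), with effects of 1.13 ± 0.12 in LoVo and 0.02 ± 0.12 in SW948. HSPA5 and FKBP4 fell less in LoVo than in HCT116, with differences of 0.35 ± 0.07 and 0.40 ± 0.06 (adjusted p = 0.00387 and 1.75e-04). ABCC3 rose less than in HCT116, with a difference of -1.45 ± 0.16 (adjusted p = 1.26e-06). On the scaling of the fit over 4 lines, whose CPM differ slightly from those above, ALPP averaged 207 CPM with 2-MiCit and 109 CPM in control in LoVo, 220.3 and 179.8 CPM in DLD1, and under 1 CPM in HCT116 and SW948. Its LoVo effect differed from that in DLD1 by 0.63 ± 0.15 and did not pass the test (adjusted p = 0.0567). ALPG was under 1 CPM in all 3 other lines. All 4 comparisons between lines share the LoVo libraries.

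Enzymes that use citrate or isocitrate, close to 2-MiCit in structure, did not pass edgeR's test. Of the 11 citrate and isocitrate enzymes and carriers 0 were called by edgeR, against 2 lower by DESeq2 and 2 lower at an unadjusted p below 0.05. By edgeR 1 was called lower with the length trend removed or without control replicate 4. They had log2 fold changes from -0.20 for IDH3A, a subunit of mitochondrial isocitrate dehydrogenase, to 0.34 for the citrate importer SLC13A5. IDH3A had 122, 129, 130.4 and 130.4 CPM in the 2-MiCit libraries, against 153, 149.8, 149 and 134 CPM in the control libraries, without overlap (adjusted p = 0.0801). SLC13A5 stood near 1 CPM and its groups overlapped. Among the 12 tested genes that handle fluoropyrimidines 0 were called by edgeR, against 1 lower by DESeq2, and 1 higher and 1 lower at an unadjusted p below 0.05. By edgeR 1 was called lower without control replicate 1. TYMS, the target of 5-fluorouracil, had 184, 194, 211 and 202 CPM in the 2-MiCit libraries, against 198, 210.1, 226 and 245 CPM in the control libraries (log2 -0.15 ± 0.07, adjusted p = 0.244), with overlap. DPYD, which degrades the drug, had 5.10, 4.88, 5.46 and 4.94 CPM in the 2-MiCit libraries, against 4.10, 4.03, 4.00 and 3.55 CPM in the control libraries (log2 0.38 ± 0.12, adjusted p = 0.106), without overlap. A p above the threshold does not show that these genes kept their level.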

How the data were processed

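RNA was measured by strand-specific sequencing of polyadenylated transcripts. The authors deposited whole-number counts per gene and library; per the submitters' processing notes, bcl2fastq 2.20.0, Trimmomatic 0.39, Salmon 1.5.0, DESeq2 and GRCh38.p13 were used, with no roles given. The counts were tested as deposited. Of 16485 identifiers 15382 had a symbol in the gene name table or GENCODE 29, which also gave coordinates. edgeR 4.0.16 in R 4.3.3 (filterByExpr, TMM scaling, robust quasi-likelihood F test, two-sided, Benjamini-Hochberg adjustment) compared the 4 2-MiCit with the 4 control LoVo libraries. This fit gave the adjusted p-values within LoVo. A second edgeR fit, over 32 libraries of 4 lines, gave those of differences between lines, adjusted over the genes of each contrast. DESeq2 1.42.0 was an alternative for both. Both edgeR fits were run on simulated counts, with changes larger than the median change called in LoVo. Smaller changes and shifts of a whole library were not simulated. The other tables, of other lines or of values normalised by the authors, were not used.

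Further alternatives were RLE scaling, other filters, the replicate number as a block, removal of each library's loess trend on transcript length (span 0.5), and leaving out each LoVo library. The labels' numbers were not shown to pair libraries, although the mitochondrial share of counts had the same order of numbers in both groups. Promoter sequences are RefSeq's (GRCh38.p14).

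Named genes were the called genes with the largest changes (at least 5 CPM, no overlap between groups) and the most counts, the leading called and uncalled members of each list, the leading differences between lines, and a few genes set by name. KLHL24, YPEL3, FBXO32, INSR, BTG1, IRS1, CCT7, IGF1R, ERBB2, GAB2, PIK3CD, PHLPP1, PSMC2, PSMD6, PSMD14, PSMD1, PSMB2, RARS1, AIMP1, YARS1, HSPG2, LAMA5, AGRN, EPCAM, CDX2 and OPTN fall outside that rule or belong to families added later, and were chosen after their values were seen. The comparison and the lists were chosen with earlier results of these data known, and 6 families were added after values were seen. A few genes that the rule names are not reported here.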

Additional observations from a re-analysis of the deposited data

Results flagged for a closer look

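In some groups of 4, 1 library lay far from the other 3, by Dixon's criterion at 95%, which chance meets in about 1 in 20 groups. Among higher genes these were ANK1 in control replicate 1 (2.61 CPM), AHNAK2 in control replicate 1 (44.2 CPM), MXD4 in 2-MiCit replicate 2 (50.4 CPM) and GBP2 in 2-MiCit replicate 2 (5.90 CPM). IRS1 in 2-MiCit replicate 3 (115 CPM), PIK3CD in control replicate 2 (3.72 CPM) and HSPG2 in 2-MiCit replicate 1 (26.0 CPM) were others. Among lower genes TFRC stood out in 2-MiCit replicate 4 (511 CPM) and in control replicate 4 (535 CPM), so that its groups came close in library 4 alone. HSPE1 stood out in 2-MiCit replicate 3 (478 CPM), HSPH1 in control replicate 1 (147 CPM), NOP56 in control replicate 4 (394 CPM) and C5orf63 in control replicate 4 (40.2 CPM). SARS1, not called in LoVo, stood out in control replicate 4 (183 CPM).

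The LoVo effect differed from the mean effect of HCT116, DLD1 and SW948, by edgeR's test of the difference, for the genes below, each on the log2 scale. It was higher for SLC7A8 (0.78), LIPH (0.67), GDF11 (0.47), ERBB3 (0.46), AQP3 (0.39), SERINC2 (0.39) and C2orf88 (0.39). It was lower for the ATF4 targets CHAC1 (-1.53), DDIT4 (-1.23), ASNS (-0.99), TRIB3 (-0.69), PSAT1 (-0.64), SARS1 (-0.41) and CEBPG (-0.39). It was also lower for IFRD1 (-0.49), PDCD4 (-0.47), DUSP4 (-0.44), PHLDA1 (-0.38) and YARS1 (-0.24). The last of these lost its call without 2-MiCit replicate 2, 3 or 4 or control replicate 2 or 4 (adjusted p up to 0.0844).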

How the results depend on the processing

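In LoVo, higher and lower calls numbered 458 and 477 with DESeq2, 348 and 370 with the length trend removed, 521 and 667 with that and the replicate block together, and 120 and 82 in 1 fit over 4 lines, against 218 and 96. Leaving out 1 library gave 32 to 528 higher and 4 to 540 lower calls, and the cause was not tested. The replicate block alone gave 189 and 102, with 198 of the 314 calls and 75 of the 106 named genes kept. Same-numbered libraries were not shown to be paired, since their deviations correlated at 0.00371, -0.165, 0.198 and 0.0469, although the mitochondrial share of counts had the same order of numbers in both groups (4.37, 3.36, 3.04 and 2.46% with 2-MiCit, 4.51, 3.20, 2.56 and 1.97% in control). Against the mean of the other lines (9 higher, 46 lower) DESeq2 called 33 and 88 and the block 4 higher. Against HCT116 the block gave 219 higher. Against DLD1 it gave 6 and 36, and DESeq2 71 and 114. Against SW948 a stricter filter gave 21 and 5, the block 2 and 1, and DESeq2 104 and 96. Without 1 LoVo library these contrasts gave 2 to 8 higher and 27 to 36 lower (mean of the others), 222 to 358 and 476 to 593 (HCT116), 7 to 13 and 34 to 47 (DLD1), and 2 to 7 and 0 to 3 (SW948).

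Of 106 called genes named here, 20 kept their call without any 1 library, 106 were called by DESeq2, 100 with the length trend removed and 59 in 1 fit over 4 lines. Only uncalled genes changed sign. The log2 fold change of CDKN1A, 0.03, ran from -0.0185 to 0.0685 when 1 library was left out, and was negative without 2-MiCit replicate 1 (-0.0185) or 2 (-0.00678). That of MDM2 ran from -0.0254 to 0.067, negative without control replicate 4 (-0.0143) or 2-MiCit replicate 4 (-0.0254), and was -0.11 with the length trend removed, with or without the block. That of CDX2 ran from -0.0078 to 0.0783, negative without control replicate 1 (-0.0078). The depth of 13837856 to 16458714 counts left 2808 genes below the filter.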

Other observations

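Genes of laminins and their partners in the basement membrane, a family added after values were seen, also leaned higher in LoVo. Of 11 tested members 4 rose and 0 fell by edgeR (6 and 0 by DESeq2), against 1.59% and 0.702% of all genes tested. The median log2 fold change was 0.19. HSPG2, which encodes perlecan, had 25.97, 22.5, 22.04 and 22.2 CPM in the 2-MiCit libraries, against 19.2, 17.5, 15.2 and 14.7 CPM in the control libraries (log2 0.47 ± 0.10, adjusted p = 0.0370). LAMA5, a chain of the main epithelial laminins, had 139, 127, 111 and 118 CPM in the 2-MiCit libraries, against 106, 95.9, 88.6 and 84.5 CPM in the control libraries (log2 0.40 ± 0.08, adjusted p = 0.0393). AGRN, a heparan sulfate proteoglycan, had 162 ± 8.51 CPM with 2-MiCit and 137 ± 4.22 CPM in control (SD, n = 4; log2 0.24 ± 0.05, edgeR adjusted p = 0.0440), and LAMB3 was the other. All 4 lost their calls without 2-MiCit replicate 1, 2-MiCit replicate 2 or control replicate 3 (adjusted p up to 0.165). AGRN was not called with the length trend removed (edgeR adjusted p = 0.107).

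The nuclear genes of the respiratory chain had small log2 fold changes. All 41 tested were below 0, with a median of -0.14, while 49.5% of all genes tested were above 0. In edgeR 0 passed the test, with or without the length trend removed, against 1 in DESeq2 and 7 at an unadjusted p below 0.05. By edgeR 8 passed without control replicate 1 and 0 without any other library. Their summed level was 8068 to 8577 CPM in the 2-MiCit libraries and 8080 to 10028 CPM in the control libraries, so the groups overlapped. The 13 genes encoded in mitochondrial DNA had a median of 0.08, with 0 called by edgeR or DESeq2 and 1 higher at an unadjusted p below 0.05 (1 was called higher by edgeR without control replicate 1), and summed to 24011 to 43292 CPM with 2-MiCit and 20479 to 45095 CPM in control.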
